A study of Mus musculus with 50 samples.

Results

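The 10 genes described here encode the ligands, the receptor and a feedback inhibitor of epidermal growth factor receptor (EGFR) signalling, and they were chosen by name out of 21954 genes measured. The ligand genes were Areg, Ereg, Hbegf, Tgfa, Epgn, Btc, Egf and Nrg1, the receptor gene was Egfr, and the inhibitor gene was Errfi1. They were followed in 41 mouse digits by RNA-seq of the wound bed after amputation through the distal terminal phalanx (P3). Digit 3 of both hindlimbs was amputated in male C57Bl/6 mice of 9 to 10 weeks. The study asked how the wound bed differs with the level of amputation, since small amputations regenerate and large ones do not.

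The non-regenerative (NR) group held 29 digits with 60% to 80% of P3 removed. Collection was at 0, 3, 6, 12 or 24 hours, or after 3, 7, 14 or 21 days. Each time point had 3 digits, except for 5 digits after 7 days. The groups follow the labels. The study's methods set non-regenerating digits at more than 67% removed, and 17 of the 29 NR digits had a labelled level above 67%. The digits at 12 hours were labelled 64% to 67%, so none was above it. At 0 and 3 hours only digit 3 was, labelled 75% at both times. The intermediate (INT) group, labelled Medium, held 12 digits with 41% to 55% removed, taken at 0 hours, 24 hours, 14 days or 21 days, 3 digits per time. Both groups were of the same strain, and the labels name no transgene and no drug treatment of the mice. Digits of the regenerative level were not analysed here. Each digit is called by its group, time and replicate number. The labels do not tie digits to animals, and 5 pairs of digits share a mark, date and side, so p-values measure the spread between digits.

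EGFR is a receptor tyrosine kinase. Its ligands are made as membrane-anchored precursors that proteases such as ADAM17 release, and the bound receptor signals through the RAS and ERK pathway, which drives keratinocyte migration and proliferation in wounded skin. Areg, Tgfa, Egf and Epgn encode ligands of EGFR itself, Hbegf, Btc and Ereg encode ligands that also bind ERBB4, and Nrg1 encodes a ligand of ERBB3 and ERBB4. Errfi1 encodes an adaptor that signalling induces and that blocks the receptor's kinase.

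Epgn, Ereg, Areg and Btc are neighbours on mouse chromosome 5 of GRCm38. By the GENCODE M21 annotation, Epgn lies at chr5:91027464-91035215, Ereg at chr5:91074622-91093646 and Areg at chr5:91139599-91148432, all on the plus strand, and Btc at chr5:91357261-91402994 on the minus strand. No other protein-coding gene lies wholly within the interval from Epgn to Btc. Tgfa lies at chr6:86195223-86275719, Egf at chr3:129677565-129755316, Nrg1 at chr8:31814551-32884029, Egfr at chr11:16752203-16918158 and Errfi1 at chr4:150853919-150868892. Antisense genes overlap Ereg, Egf, Egfr and Errfi1 in the annotation, and none of the overlapping genes is in the count table.

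RefSeq promoters on GRCm38.p6 were matched by symbol for 7 of the 10 genes, with 9 entries in all. Ereg and Nrg1 had no entry. Hbegf was left out of this match, so the counts below do not cover it, and its position is not reported here. Each entry holds 300 bases, from 250 before the transcript start to 50 after it. The letters TGACGTCA, the cAMP response element, are the same on both strands, and they were in 1 entry of Areg and in 1 of the entries of Errfi1. Over 32851 promoters of this length, 1.79% held them. The AP-1 letters TGANTCA, also read on both strands, were in none of the 9 entries and in 7.81% of all promoters. The 250 bases before the start are shown for Areg (chr5:91139349-91139598, plus strand) and Errfi1 (chr4:150854820-150855069, plus strand). They were picked because they were the only entries that held the cAMP response element, which is in capitals. It began 61 bases before the start in Areg and 51 bases before it in Errfi1. No binding was measured, so the match is a description of the letters.
Areg: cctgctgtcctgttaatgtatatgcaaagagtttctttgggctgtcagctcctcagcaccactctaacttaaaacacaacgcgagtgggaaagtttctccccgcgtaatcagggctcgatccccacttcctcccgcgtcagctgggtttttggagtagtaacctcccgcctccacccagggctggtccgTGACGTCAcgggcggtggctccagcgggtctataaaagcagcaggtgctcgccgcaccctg
Errfi1: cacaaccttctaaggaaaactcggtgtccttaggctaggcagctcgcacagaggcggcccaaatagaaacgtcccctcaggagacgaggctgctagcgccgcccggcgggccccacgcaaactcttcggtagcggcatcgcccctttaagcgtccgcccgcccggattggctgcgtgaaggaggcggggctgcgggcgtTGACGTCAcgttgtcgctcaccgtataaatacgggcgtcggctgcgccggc

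Levels are given as normalized TPM, a transcript abundance corrected for length and scaled between libraries, so that genes can be compared, and tests were run on expected counts. Total expected counts ran from 1468749 to 13011782 per digit, and the smallest was NR 3 hours digit 3. Btc was at 0 of 1468749 counts there, which allows up to 3 counts, for counting error only. NR 14 days digit 2 also stood apart, with a sum of normalized TPM of 3362791 against 795701 to 1434851 in the other digits. The label of each digit holds a date but does not say what it stands for. The dates were split here into an earlier period (24 digits) and a later period (17 digits). All digits at 3 and 12 hours in NR are from the earlier period. The markers of basal and suprabasal keratinocytes, fibroblasts and wound keratinocytes were above 0 in every digit. In bulk tissue, fewer cells of a type and less RNA per cell cannot be told apart.

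Over all 41 digits, Epgn had the highest mean of the 10 genes at 113 normalized TPM, followed by Ereg at 82.2, Errfi1 at 74.2 and Hbegf at 58.8. Areg had a mean of 26.2, Egfr 25.3, Btc 13.7 and Tgfa 12.1. Nrg1 at 7.29 and Egf at 2.70 were the lowest. Egf was at 0 in 3 digits, Areg in 5, Btc in 2 and Nrg1 in 1.

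The genes of the 5 ligands Areg, Epgn, Hbegf, Tgfa and Nrg1 rose in NR digits from 6 to 24 hours after amputation. Ereg was highest at 3 hours and fell below its starting level by 24 hours. A gene was called when its Benjamini-Hochberg adjusted p was below 0.05 in edgeR's quasi-likelihood test over all genes tested and the ratio of the mean normalized counts, with 1 added to each, was beyond 2-fold. At 6 hours 6 of 10 genes were called higher than at 0 hours and none lower, against 4.85% of 13168 genes called. At 12 hours 7 of 9 tested genes were called, all higher, against 11.4% of all genes, and at 24 hours 5 were called higher and 1 lower of 10, against 10.7%. The median log2 fold change of the tested members was 1.95 at 6 hours, 2.48 at 12 hours and 1.57 at 24 hours, and that of all genes tested was -0.03, -0.03 and -0.04. These comparisons share the 3 digits at 0 hours. Of all genes tested, 33.5% did not overlap in normalized counts between 6 and 0 hours. The share was 42.3% at 12 hours and 39% at 24 hours, so a lack of overlap in a single gene was common. At 6 hours 3 members were called without NR 0 hours digit 2 or 3 or NR 6 hours digit 1 or 2. The counts at 12 and 24 hours were 5 to 7 and 5 to 9 when any 1 digit was left out. The shares of all genes called in these fits are not reported here, so these counts have no background to be read against.

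At 3 hours none of the 10 genes was called, and 0% of 12562 genes were, with 1362 at an unadjusted p below 0.05. Of the members, 6 were at an unadjusted p below 0.05, and DESeq2 called 4 higher, which were Ereg, Hbegf, Epgn and Errfi1, against 1.45% of all genes. The normalized counts of 7 members did not overlap between 3 and 0 hours, against 20.6% of all genes. Without NR 0 hours digit 1, edgeR called Hbegf and Errfi1 higher, against 0.648% of all genes.

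**Figure D1:**
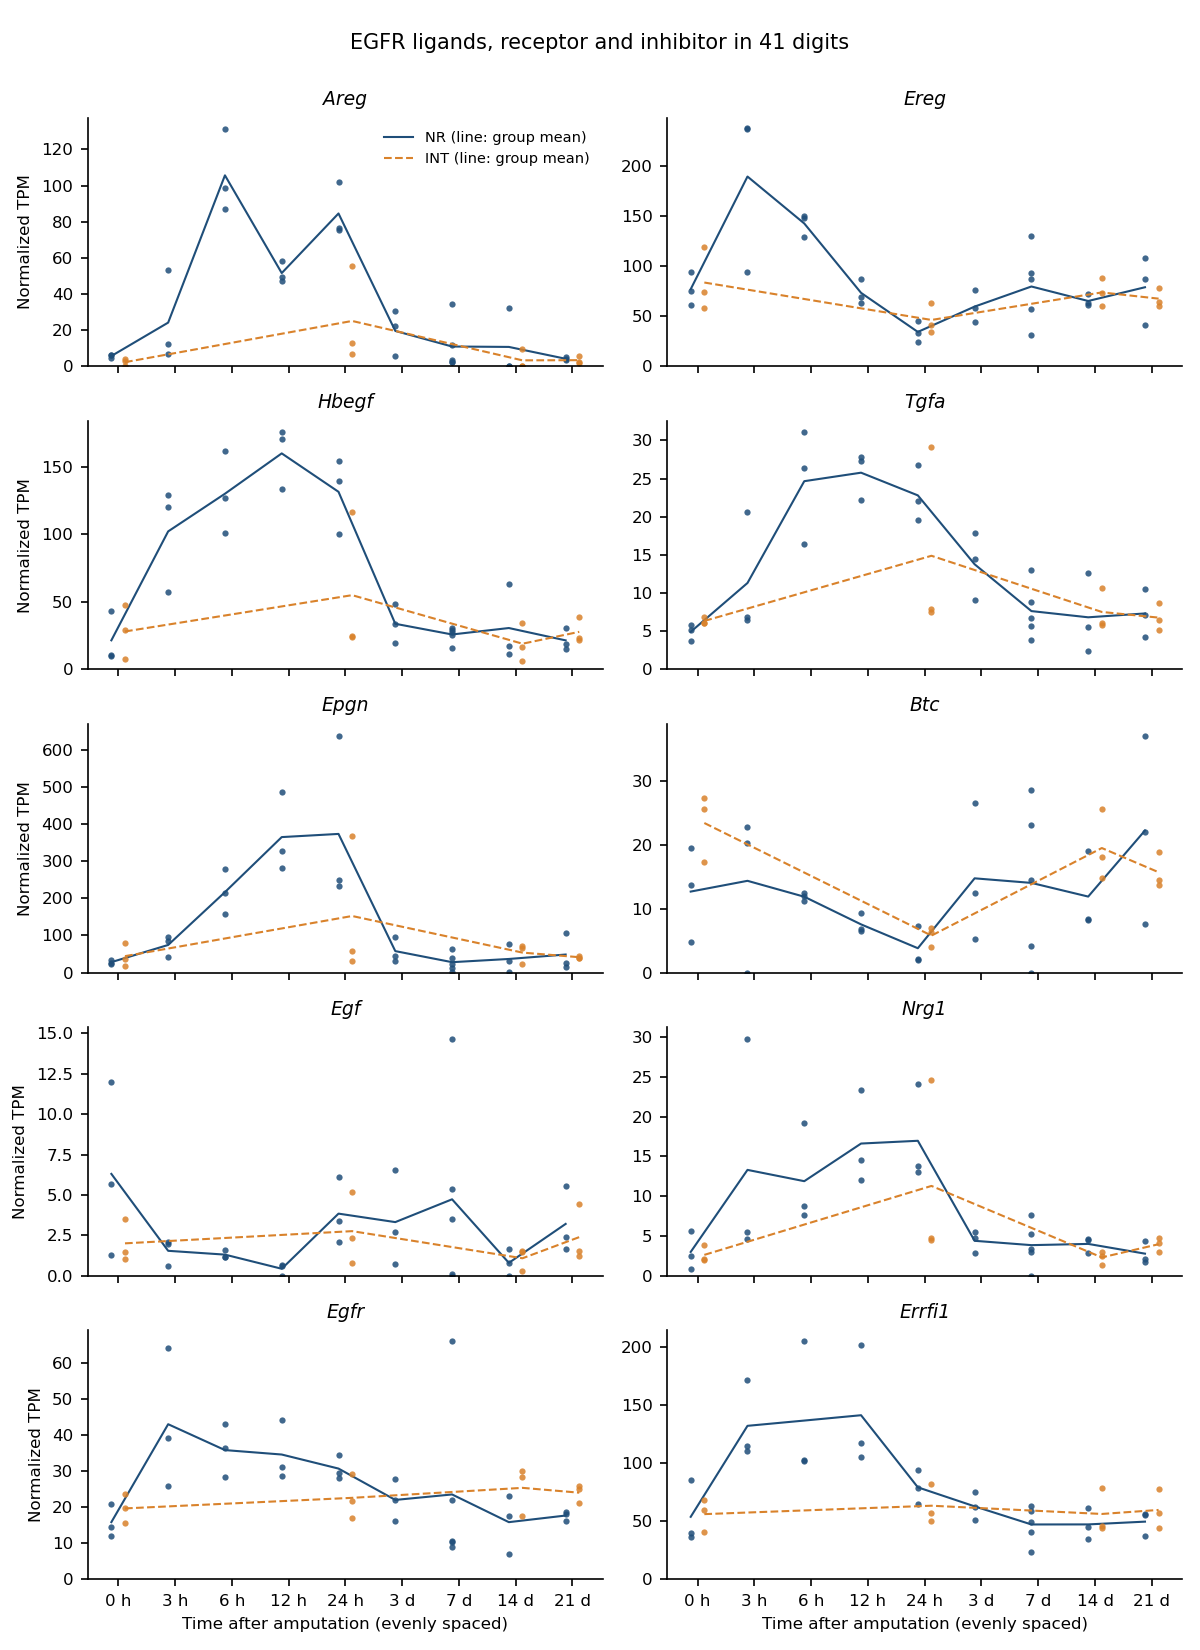
Normalized TPM of the 10 genes in each of 41 digits against time after amputation, with time points evenly spaced, 1 point per digit and lines through the means of NR and INT digits. Areg, Epgn, Hbegf and Tgfa sit highest in NR digits at 6 to 24 hours, Ereg at 3 hours, and Btc lowest at 24 hours.

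Areg encodes amphiregulin. It stood at 4.63, 6.09 and 6.24 normalized TPM in NR digits at 0 hours and at 98.6, 87.2 and 131 at 6 hours, and the 2 groups did not overlap. At 3 hours it was 6.96, 12.04 and 53.4, so digit 3 was well above the other two. It was 58.2, 49.2 and 47.3 at 12 hours and 75.3, 76.6 and 102 at 24 hours. These later values were all above each digit at 0 hours. The log2 fold change of counts was 4.26 ± 0.26 (SE) at 6 hours, with an adjusted p of 0.000596 by edgeR, the largest among the 10 genes. It was 3.22 ± 0.25 at 12 hours and 3.93 ± 0.25 at 24 hours. By 21 days the 3 digits were back at 4.94, 4.23 and 3.202. At 14 days digits 1 and 2 were at 0 and digit 3 at 32.0. Both periods held the rise, since the earlier digits went from 4.63 to 98.6 and 87.2 and the later ones from 6.09 and 6.24 to 131.

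Epgn encodes epigen. It was 34.9, 27.0 and 22.9 normalized TPM at 0 hours and 41.2, 86.2 and 96.1 at 3 hours. It reached 213, 280 and 156.5 at 6 hours, 486, 281.5 and 326 at 12 hours and 250.1, 232 and 637 at 24 hours. No digit at 6, 12 or 24 hours overlapped with those at 0 hours. The log2 fold change rose from 3.11 ± 0.24 at 6 hours to 3.84 ± 0.25 at 12 hours and 3.96 ± 0.38 at 24 hours, with adjusted p of 0.00142, 0.000231 and 0.000657 by edgeR. The digits at 3 days were at 95.5, 32.6 and 45.7, with a log2 fold change of 1.16 ± 0.33 and an adjusted p of 0.199. DESeq2 called this last difference higher, as it did that of Tgfa at 3 days.

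Hbegf encodes heparin-binding EGF-like growth factor. It was 43.6, 10.8 and 10.2 normalized TPM at 0 hours, so digit 1 stood above the others. It was 57.0, 120 and 129 at 3 hours, 162, 101.2 and 127 at 6 hours and 171, 133.5 and 176 at 12 hours. At 24 hours it was 154, 100.5 and 139.5. All of these were above all digits at 0 hours. The log2 fold change was 2.68 ± 0.55 at 6 hours, 2.99 ± 0.53 at 12 hours and 2.71 ± 0.53 at 24 hours, with adjusted p of 0.0316, 0.0091 and 0.0125 by edgeR. The call at 6 hours was lost without any 1 of NR 0 hours digits 2 and 3 or of the 3 digits at 6 hours, and the one at 12 and 24 hours was not lost in any such fit.

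**Figure D2:**
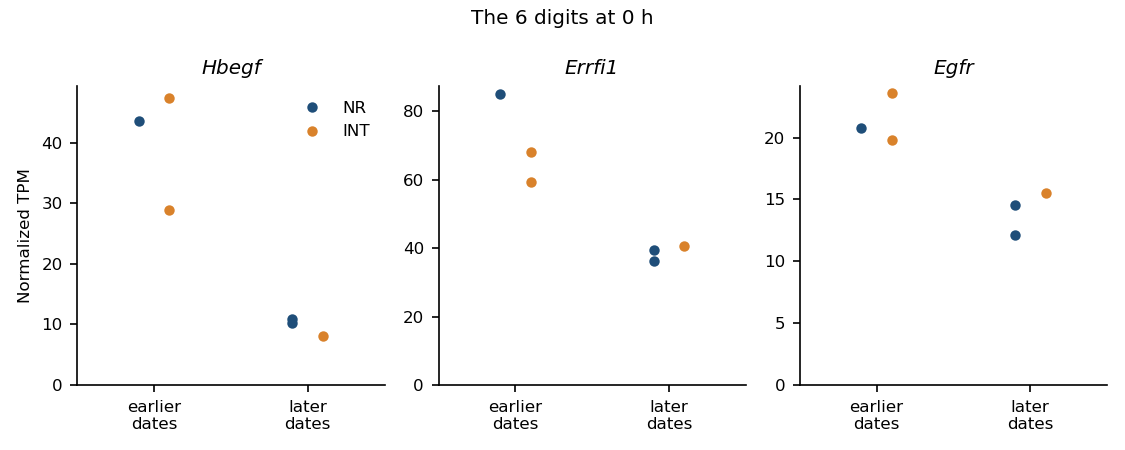
Normalized TPM of Hbegf, Errfi1 and Egfr in the 6 digits at 0 hours by date period and group, 1 point per digit. The 3 digits of earlier dates lie above the 3 of later dates for each gene.

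The level at 0 hours went with the date period. Over the 6 NR and INT digits at 0 hours, Hbegf was 43.6, 47.4 and 28.9 in the 3 earlier digits and 10.8, 10.2 and 8.05 in the 3 later ones. With the group as a term, the later digits were lower in Hbegf by a log2 change of -2.12 ± 0.23 (adjusted p = 0.00912 by edgeR) and in Errfi1 by -1.10 ± 0.15 (adjusted p = 0.0107), the 2 of 10 genes past the threshold, against 3.67% of 13500 genes. Egfr had an adjusted p of 0.0527. This comparison was added after the values were seen. The NR digits at 3 and 12 hours are all earlier, so their difference from the 2 later digits at 0 hours and the date period cannot be told apart. Within the earlier digits, Hbegf was 43.6 at 0 hours, 57.0 to 129 at 3 hours, 162 and 101.2 at 6 hours, and 133.5 to 176 at 12 hours. Within the later digits it was 10.8 and 10.2 at 0 hours, 127 at 6 hours and 100.5 at 24 hours. The value at 6 hours and at 24 hours was above that at 0 hours within each period.

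In 1 fit of all 41 digits, fewer members passed the threshold. It called Hbegf and Tgfa at 6 hours, against 0.774% of all genes, those with Epgn, Nrg1 and Errfi1 at 12 hours, against 2.81%, and Hbegf, Tgfa, Epgn and Nrg1 at 24 hours, against 2.21%. With the date period added to that fit, Hbegf and Tgfa remained at 6 hours, against 0.787%, Hbegf, Tgfa and Epgn at 12 hours, against 2.07%, and Hbegf, Tgfa, Epgn and Nrg1 at 24 hours, against 2.23%. Areg passed in none of these, with adjusted p from 0.0647 to 0.198 and log2 fold changes from 3.21 to 4.66.

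Tgfa encodes transforming growth factor alpha. It was 5.81, 3.77 and 5.20 normalized TPM at 0 hours and 6.90, 20.6 and 6.46 at 3 hours. It was 31.1, 26.4 and 16.5 at 6 hours, 27.8, 22.2 and 27.4 at 12 hours and 26.8, 19.6 and 22.1 at 24 hours, with no overlap with 0 hours. The log2 fold change stayed between 2.33 ± 0.22 and 2.48 ± 0.20 from 6 to 24 hours, with adjusted p of 0.00454, 0.000551 and 0.00054 by edgeR. At 3 days it was 14.4, 9.04 and 17.9, still above all digits at 0 hours, with a log2 fold change of 1.53 ± 0.30 and an adjusted p of 0.069. Without NR 3 days digit 2 this passed, at 0.0217.

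Nrg1 encodes neuregulin 1. It was 5.66, 2.56 and 0.804 normalized TPM at 0 hours, 19.2, 8.80 and 7.64 at 6 hours, 23.3, 14.5 and 12.03 at 12 hours and 13.04, 13.8 and 24.1 at 24 hours. The groups did not overlap from 6 to 24 hours. The log2 fold change was 2.67 ± 0.50, 3.14 ± 0.50 and 3.29 ± 0.51 at these times, with adjusted p of 0.0253, 0.00615 and 0.00486 by edgeR. The 6 hours call was lost without NR 0 hours digit 2 or 3 or NR 6 hours digit 1 or 2. At 3 hours digit 3 held 29.7 and the other two 4.62 and 5.56.

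Ereg encodes epiregulin. It was 61.6, 94.0 and 75.3 normalized TPM at 0 hours and 238, 237 and 93.9 at 3 hours. It was 150.1, 148.5 and 129 at 6 hours, 62.7, 87.6 and 69.5 at 12 hours and 24.5, 45.4 and 32.9 at 24 hours. The digits at 6 hours lay above and those at 24 hours below all digits at 0 hours. At 24 hours Ereg was called lower, with a log2 fold change of -1.12 ± 0.26 and an adjusted p of 0.0228 by edgeR. At 6 hours its log2 fold change of 0.94 ± 0.21 had an adjusted p of 0.0425 and stayed under the 2-fold limit. The 24 hours call was lost in the fits of all 41 digits and without NR 0 hours digit 2 or 3 or NR 24 hours digit 1 or 3. From 3 to 21 days Ereg ranged from 31.5 to 130.0.

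Btc encodes betacellulin. It was 4.75, 13.8 and 19.6 normalized TPM in NR digits at 0 hours and 2.14, 7.35 and 1.99 at 24 hours, and the 2 groups overlapped. The log2 fold change at 24 hours was -1.51 ± 0.51 with an adjusted p of 0.0764 by edgeR. In INT digits it was 25.6, 27.4 and 17.4 at 0 hours and 7.02, 6.30 and 4.09 at 24 hours. These did not overlap, as in 23.3% of all genes tested. Btc was then 14.8, 25.6 and 18.1 at 14 days and 18.9, 14.6 and 13.8 at 21 days.

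Egf encodes epidermal growth factor. It was at most 14.6 normalized TPM in any digit and did not pass in any NR comparison. It was too low to be tested at 12 hours, where it was listed at 0, 0.691 and 0.627 normalized TPM.

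Egfr, the receptor gene, was 20.8, 14.6 and 12.1 normalized TPM at 0 hours, 36.3, 43.0 and 28.2 at 6 hours and 44.1, 28.6 and 31.1 at 12 hours. It was called at both times, with log2 fold changes of 1.02 ± 0.24 and 1.03 ± 0.24 and adjusted p of 0.0476 and 0.0219 by edgeR. At 24 hours it was 34.6, 28.0 and 29.5 with a log2 fold change of 0.81 ± 0.23 and an adjusted p of 0.0465, under the 2-fold limit. The groups did not overlap at these times. The call at 6 hours was lost without any 1 of NR 0 hours digits 2 and 3 or the 3 digits at 6 hours, and the one at 12 hours without 4 of the 6 digits. Its normalized TPM and counts did not always move together: NR 3 hours digit 3 held 64.1 normalized TPM on 129 expected counts.

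Errfi1, the inhibitor gene, was 84.95, 39.5 and 36.3 normalized TPM at 0 hours and 110, 114 and 172 at 3 hours. It was 205, 102 and 103 at 6 hours, 105, 117 and 201 at 12 hours and 78.2, 64.8 and 94.1 at 24 hours. Digits from 3 to 12 hours lay above all digits at 0 hours, and those at 24 hours overlapped with them. It was called at 12 hours, with a log2 fold change of 1.56 ± 0.41 and an adjusted p of 0.0331 by edgeR, and at 6 hours its 1.49 ± 0.44 had an adjusted p of 0.0807. The 12 hours call was lost without any 1 of 5 of the 6 digits, the exception being NR 0 hours digit 1. It held in the fit of all digits, with an adjusted p of 0.0318 by edgeR. With the date period added to that fit it was lost, with a log2 fold change of 1.35 ± 0.39 and an adjusted p of 0.0625. All digits at 12 hours are of earlier dates. Within the earlier NR digits, Errfi1 was 84.95 at 0 hours, in digit 1 alone, and 105 to 201 at 12 hours.

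**Figure D3:**
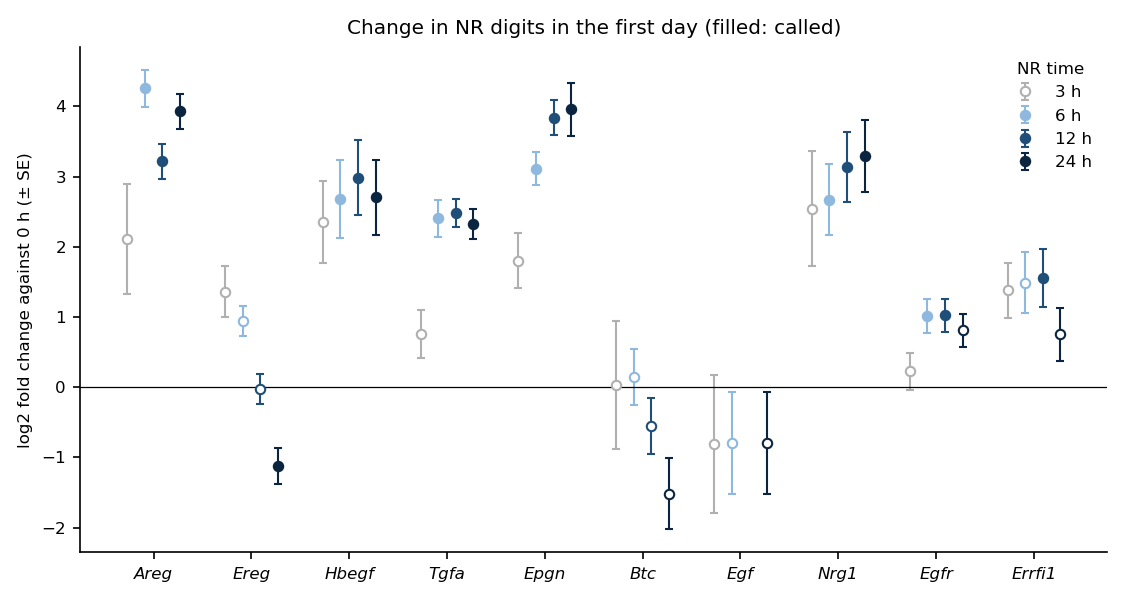
Log2 fold change of the 10 genes in NR digits at 3, 6, 12 and 24 hours against 0 hours, with standard errors, from edgeR on 3 digits per group, filled where called. Areg at 6 hours is the highest at 4.26, and Ereg goes from 1.36 at 3 hours to -1.12 at 24 hours.

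No member was called from 3 days on. Of all genes, 0.723% were called at 3 days and 0.0537% at 7 days. The shares were 0% at 14 days and 0.452% at 21 days. At 14 days 1044 genes were at an unadjusted p below 0.05 and no member was, and neither DESeq2 nor edgeR without NR 14 days digit 2 called a member. Over all 9 time points, 7 members had a time effect in NR digits by edgeR's F test, against 7.62% of 14434 genes. Hbegf had the smallest adjusted p at 0.000106, followed by Tgfa at 0.00114, Epgn at 0.00148, Errfi1 at 0.0028, Ereg at 0.00356, Nrg1 at 0.0142 and Areg at 0.0182. Egfr was at 0.118, Egf at 0.642 and Btc at 0.896. With the date period as a term 6 passed, against 6.66% of all genes, and Nrg1 was at 0.0738. Of the 7 that passed without that term, most did not pass in the 17 digits labelled above 67%. Those 17 hold no digit at 12 hours, and NR 0 hours digit 3 and NR 3 hours digit 3 stand alone at their times. The fit can therefore not tell a weaker time effect from the loss of digits. Ordered by mean normalized TPM, most neighbouring time points overlapped. A gap below means only that neighbours in this order did not overlap, and time points further along the order can still overlap across it. Hbegf, for example, was 63.3 in NR 14 days digit 3, above the 57.0 of NR 3 hours digit 1. Areg went from 6 hours (105.6) and 24 hours (84.5) to 12 hours (51.5) with a gap between the last pair. Hbegf was highest at 12 hours and had its gap below 3 hours (102.2), and Errfi1 was likewise apart below 3 hours (132.0). Tgfa and Nrg1 had their gaps below 24 hours (22.8) and 6 hours (11.9). Epgn had 2 gaps, between 12 hours (365) and 6 hours (217) and below 6 hours. Btc had its gap between 6 hours (11.9) and 12 hours (7.56), and Ereg, Egf and Egfr had none among 8 pairs of neighbours.

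Both the sum of the ligand genes and their make-up changed over time in NR digits. The 8 ligand genes together held 146 to 173 normalized TPM per NR digit at 0 hours. The sum was 379 to 504 at 3 hours, where the mean shares of Ereg and Epgn were still near those at 0 hours. It was 582 to 687 at 6 hours. Their sum was 596 to 838 at 12 hours, 499 to 962 at 24 hours and 167 to 248 at 3 days. No digit from 6 to 24 hours overlapped with those at 0 hours. Ereg held 48.7% ± 11.96 (SD, n = 3) of the sum at 0 hours, 44.2% ± 20.05 at 3 hours and 5.65% ± 3.03 at 24 hours. Epgn held 17.6% ± 2.33 at 0 hours, 17.2% ± 6.3 at 3 hours and 33.3% ± 7.86 at 6 hours. Its share was 51.4% ± 5.75 at 12 hours and 52.7% ± 11.8 at 24 hours. Ereg was the highest ligand in 3 of 3 digits at 0 hours, and Epgn in 3 of 3 digits at 6, 12 and 24 hours. At 7 days Ereg was highest in 4 of 5 digits and Areg in 1.

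**Figure D4:**
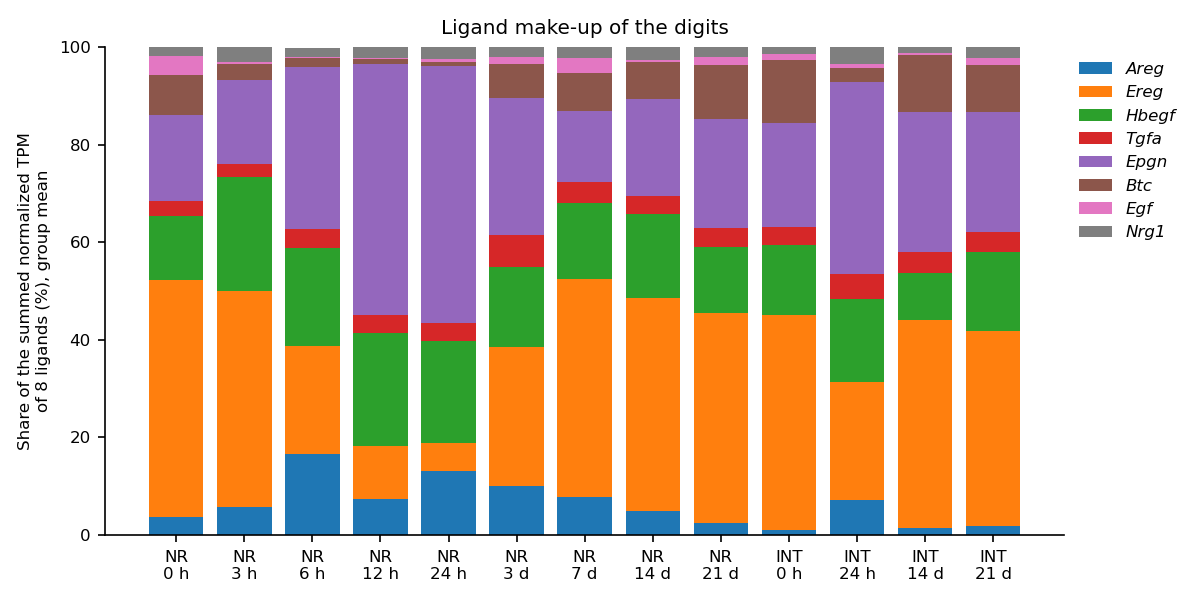
Mean share of each ligand gene in the summed normalized TPM of 8 ligand genes, in percent, per group and time point. The Ereg share goes from 48.7% at 0 hours to 5.65% at 24 hours in NR digits, and the Epgn share from 17.6% to 52.7%.

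In INT digits no member was called against 0 hours. The background was 0.0152% of genes at 24 hours, 1.68% at 14 days and 1.39% at 21 days. At 24 hours 5 members were at an unadjusted p below 0.05, and Btc came nearest, with a log2 fold change of -1.79 ± 0.28 and an adjusted p of 0.0926 by edgeR. DESeq2 called Btc lower and Nrg1 higher there, against 2.57% of all genes. Btc alone had a time effect over the 4 time points, with an adjusted p of 0.00707, against 6.21% of 14004 genes.

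The 3 INT digits at 24 hours were not alike. Areg was 55.7, 12.6 and 6.90 normalized TPM, Hbegf 116.5, 24.4 and 24.02, Epgn 368, 31.6 and 57.3 and Nrg1 24.6, 4.52 and 4.79. Digit 1, with a level of 41% and an earlier date, was above the other two for each of these genes. Digits 2 and 3 are of later dates, as is NR 24 hours digit 2, which held 76.6 of Areg, 100.5 of Hbegf and 232 of Epgn. Markers moved in the same digits. The summed level of 4 wound keratinocyte markers was 47380, 4823 and 10590 in the 3 INT digits and 36290 to 45490 in NR digits at 24 hours, against 691 to 2243 in all digits at 0 hours. That of 6 neutrophil markers was 140.8 to 1350 in INT and 1134 to 1299 in NR digits at 24 hours, against 18.8 to 40.8 at 0 hours. Over NR digits the wound keratinocyte sum was 1441 to 1739 at 0 hours, 9667 to 10710 at 6 hours and 16300 to 32780 at 12 hours. No marker of these lists was at 0 in every digit. The part of these cells in the levels of the 10 genes was not tested.

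**Figure D5:**
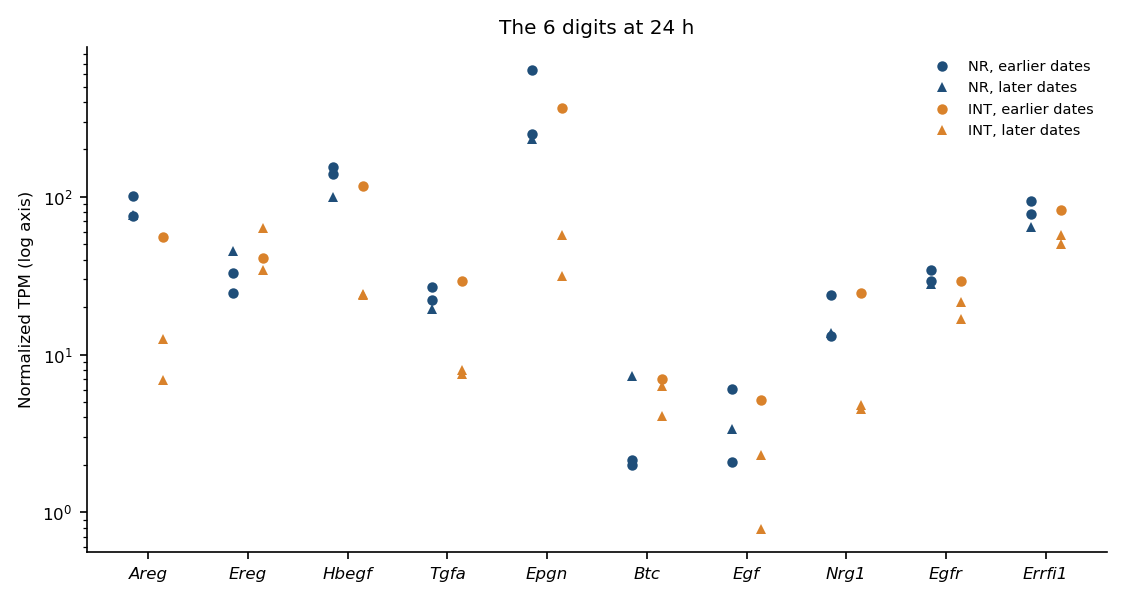
Normalized TPM on a log axis of the 10 genes in the 6 digits at 24 hours, by group and date period, 1 point per digit. INT digit 1, of an earlier date, lies within the range of the NR digits for Hbegf and Epgn and below it for Areg, and the 2 later INT digits lie below INT digit 1 for each of these.

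Between INT and NR digits no member was called at any shared time. At 21 days all INT digits are of earlier dates and all NR digits of later dates. Group and date period therefore cannot be told apart there. The background was 0% of genes at 0, 24 hours and 14 days, with 491, 1472 and 270 genes at an unadjusted p below 0.05, and 0.648% at 21 days, and DESeq2 called no member. At 24 hours Areg had the lowest adjusted p, 0.393, with a log2 change in INT of -1.78 ± 0.65. That comparison rested on INT 24 hours digit 1. Without it, 5 members were called lower in INT, against 4.78% of 13670 genes, and none higher. These were Areg with a log2 change of -3.18 ± 0.33, Epgn with -2.86 ± 0.46, Hbegf with -2.47 ± 0.24, Nrg1 with -1.88 ± 0.40 and Tgfa with -1.68 ± 0.22, with adjusted p from 0.0012 to 0.0303 by edgeR. Both remaining INT digits are of later dates and 1 of the 3 NR digits is. Each digit was left out in turn, and this fit was picked after the high values of INT 24 hours digit 1 were seen. Its p-values are therefore a description and no test of the group difference.

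Over the 24 digits at the shared times, no member had a group effect or a group by time interaction by edgeR, against 0% of 14768 genes for each, with 874 and 1048 genes at an unadjusted p below 0.05 and no member. The interaction at 24 hours alone, added after the values were seen, also had 0% of genes and no member, with 452 genes at an unadjusted p below 0.05. Epgn had the largest negative estimate, -2.18 ± 1.28. The amputation level over 41 digits gave 0% of 14996 genes and no member, with 1244 genes at an unadjusted p below 0.05. Areg had a log2 slope of 0.38 ± 0.22 per 10 percentage points of level and an adjusted p of 0.666.

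Of 46 other genes of the pathway, 44 were tested. At 6 hours in NR digits 4 were called higher and 2 lower, against the 4.85% of all genes. Fosl1, an ERK-induced transcription factor, rose by a log2 change of 4.34, Dusp6, an ERK phosphatase, by 1.48 and Ier3, an early response gene, by 1.47, and Etv5 and Spred2 fell, with log2 changes of -1.197 and -1.14. At 12 hours 8 were higher and 1 lower, against 11.4% of all genes, with Fosl1 at 3.69, Ier3 at 2.02, Dusp6 at 1.98 and Plcg1 at -1.11. At 24 hours 6 were higher and none lower, against 10.7%, with Fosl1 at 2.66, Ier3 at 1.80 and Etv4 at 1.74. None was called at 3 hours, from 3 days on, in INT against 0 hours or between INT and NR. By the F test over time, 5 of the 44 changed in NR digits, among them Fosl1, Dusp6 and Spry2, against the 7.62% of all genes, and 2 in INT digits, against 6.21%, which were Timp3, an inhibitor of ADAM17, and Spred2. The median log2 fold change of the 44 genes was 0.14 at 6 hours, 0.11 at 12 hours and 0.15 at 24 hours.

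The genes most like each member were named by Spearman's rho of normalized TPM over the 41 digits among 13051 genes, as a description. The digits share time points and libraries, so rho was also computed on deviations from the group means. Hbegf and Errfi1 were each among the 3 most alike genes of the other, with rho = 0.906, and 0.757 on these deviations. Over the pairs named here, rho on deviations ran from 0.533 for Tgfa with Il13ra1 to 0.832 for Egfr with Sh3glb1, and that of Areg with Eif1a was 0.566. Fosl1 had 0.886 with Hbegf and 0.908 with Errfi1, Tiparp had 0.861 with Hbegf and 0.821 with Tgfa, and Arc had 0.832 with Errfi1. Areg was most like Slc5a1 (0.893) and Eif1a (0.89). Epgn was most like Serpinb2 (0.899), Slc30a4 (0.856) and Utp14b (0.835). Tgfa was also like Pla2g4e (0.826) and Il13ra1 (0.809). Nrg1 was most like Ptgs2 (0.832), Wdr1 (0.831) and Adamts1 (0.826), and Egfr like Sh3glb1 (0.871), Abl2 (0.869) and Nup98 (0.858). Among the genes most like Ereg were Tob1 (0.706) and Dkkl1 (0.668). Btc was most like Tspyl4 (0.829), Lipm (0.787) and Fcho1 (0.763), and Egf like Clpx (0.66), Kif18a (0.596) and Fry (0.583).

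The same genes were read in macrophages grown from bone marrow of female C57BL/6 mice of 6 to 8 weeks, unstimulated (M0), after interferon gamma and LPS (M1) or after IL-4 (M2), 3 libraries each. Hbegf was 3.27, 4.85 and 3.96 normalized TPM in M0, 22.1, 20.4 and 21.4 in M1 and 19.3, 18.4 and 15.6 in M2. It was called in both, with log2 fold changes of 2.43 ± 0.12 and 2.09 ± 0.13. In M1 2 of 6 tested members were called, against 46.1% of all genes, and in M2 5 of 7, against 22.3%. Errfi1 rose from 46.6, 51.5 and 47.3 to 127.5, 116 and 121 in M2, and Nrg1 and Egfr were called higher there. Egf was called lower in both, on at most 37 expected counts per library. Ereg, Areg, Tgfa, Epgn and Btc were below 1 normalized TPM in every macrophage library.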

How the data were processed

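Wound bed RNA of 41 digits and RNA of 9 macrophage libraries were sequenced by LM-Seq (poly(A)+, single-end). Per the study's methods, the authors mapped reads with Bowtie to Ensembl transcripts of GRCm38 and deposited RSEM expected counts without normalization (version 1.2.3 in the submitters' processing notes). The authors also deposited a signal, TPM after a median-by-ratio normalization across libraries. All sample columns were mapped, and 0 were left unused.

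Groups came from sample labels. The 26 digit gene names turned into dates were restored from transcript lists. Expected counts were rounded and each comparison was fitted on its own libraries with edgeR 4.0.16 in R 4.3.3 (filterByExpr, TMM, quasi-likelihood test), with standard errors from the fold change and F statistic. DESeq2, RLE size factors, no count filter, no fold limit, fits of all 41 digits, the date period and leaving out digits were alternatives. The study's EBSeq was not available. Fits were tested on simulated data. All 10 members are named; of other pathway genes, up to 3 called higher and 3 lower with the largest change per comparison, and the 3 genes most like each member, of which some are not reported here. Members, lists and tests were chosen with earlier results of these data known. Total expected counts ran from 15683424 to 27904773 in macrophages.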

Additional observations from a re-analysis of the deposited data

Results flagged for a closer look

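The highest of the 5 NR digits at 7 days stood far from the others in Egfr, at 66.12 normalized TPM (digit 4) against 8.87 to 21.9 in the other 4 digits. Its gap to the nearest digit was 0.773 of the range, above Dixon's critical value of 0.71. The expected count of that digit was 495, against 274 to 413 in the others, but the totals differed. Digit 4 held 495 of 4482033 expected counts, and digit 1 held 372 of 3206590. Relative to the total, digit 4 was therefore not above digit 1, and the flag rests on normalized TPM. The 10 members were each tested at 7 days, and chance flags about 1 in 20 groups.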

How the results depend on the processing

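Counts of members called changed with the tool and the samples. DESeq2 called 4 members at 3 hours and 2 at 3 days in NR digits, and 2 at 24 hours in INT digits, where edgeR called 0. DESeq2's shares of all genes called were 1.45%, 2.85% and 2.57%, against 0%, 0.723% and 0.0152% by edgeR. Without the count filter edgeR called 1 at 3 days in NR, 1 at 24 hours in INT and 2 with a time effect in INT. With the date period as a term, 2 had a time effect in INT and 6 in place of 7 in NR. In 1 fit of all 41 digits 2 passed at 6 hours, and with the date period 2 at 6 hours and 3 at 12 hours. In NR digits labelled above 67% fewer had a time effect, with no digit at 12 hours and digit 3 alone at 0 hours and at 3 hours. Without the fold limit 4 passed in M1. Leaving out 1 digit gave 0 to 2 members at 3 hours, 3 to 7 at 6 hours, 0 to 1 at 3 days and 0 to 5 between INT and NR at 24 hours. The shares of all genes in the fits at 6 hours are not reported here. The share of all genes called was 0.648% at 3 hours without NR 0 hours digit 1. It was 1.52% at 3 days without NR 3 days digit 2, and 4.78% between INT and NR without INT 24 hours digit 1. Of 307 alternative values of called member changes, in digits and macrophages together, 262 stayed past the threshold, 45 did not and 0 turned direction. All 45 were changes over time in digits, and the cause was not tested. With the macrophage replicate number as a block, 2 members passed in M1 and 5 in M2, as without it. Pairing by number was not assumed, since the correlation of deviations from group means ran from -0.113 to 0.117 between libraries that share a number and from -0.115 to 0.137 between the others. The replicate numbers of digits only name them. Egf did not pass the count filter of the pairwise fit at 12 hours in NR.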

Other observations

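Of the 44 other pathway genes tested in macrophages, 21 were called in M1 against M0, 13 higher and 8 lower, where 46.1% of all genes were called. In M2 12 were called, 8 higher and 4 lower, where 22.3% of all genes were. In M1 the largest rises were in Phlda1, an ERK-response gene (log2 fold change 3.001 ± 0.08), Spred2, an inhibitor of RAS signalling (2.60 ± 0.05), and Dusp5, an ERK phosphatase (2.58 ± 0.12). Spry1 and Rhbdf1 fell by 2.69 and 2.30 on the log2 scale, and Nrg2 stood at a mean of 0.382 normalized counts in M1 and 27.3 in M0. In M2 the largest rises were in Dusp4 (3.08 ± 0.09), Myc (2.13 ± 0.06) and Timp3 (1.80 ± 0.20), and the largest falls in Gab1 (-2.23 ± 0.08), Nrg2 (-1.82 ± 0.32) and Dusp6 (-1.18 ± 0.10). Rhbdf2, which carries ADAM17 to the cell surface, was called higher in both, with 2.51 ± 0.05 in M1 and 1.118 ± 0.08 in M2, and was chosen after its values were seen. All adjusted p were below the 0.05 threshold by edgeR.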
